A study of Mus musculus with 11 samples.

Results

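The 7 genes Tcf7, Lef1, Bach2, Satb1, Id3, Foxo1 and Foxp1 encode transcription factors that are known for naive-like or central T cells, including Treg cells that recirculate through lymphoid organs. They were taken by name from the table of gene counts, where all 7 of 52997 listed genes were found, and all 7 were among the 12932 genes tested. Clonotype+ Treg cells were CD45.2+ male donor cells with the genotype vTreg53 Tg+, C57BL/6 strain, which express the vTreg53 TCR, first found in Treg cells of visceral adipose tissue (VAT), and a Foxp3-GFP reporter. They had been sorted from pooled spleen and lymph nodes (Spl/LN), transferred into CD45.1 B6 males and recovered from Spl/LN or epididymal VAT of the recipients, and the labels give 15 wk for all libraries. Recipients of adjuvant/Fat1562, a surrogate peptide for the vTreg53 TCR, were primed subcutaneously in CFA 6 weeks after the transfer and boosted intraperitoneally in IFA 1 week later. According to the study's methods the control recipients had the adjuvants without peptide, whereas the labels call them unimmunized and name PBS, and the term adjuvant alone is used here. There were 3 libraries of Spl/LN with adjuvant alone, 3 of Spl/LN with adjuvant/Fat1562, 2 of VAT with adjuvant alone and 3 of VAT with adjuvant/Fat1562, each of 1000 sorted cells.

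All values are therefore from cells of a single TCR specificity, and nothing in the sources says whether a Spl/LN and a VAT library came from the same mouse. VAT was digested with collagenase, and for Spl/LN no digestion is described, so tissue and digestion cannot be told apart. In bulk libraries of this kind fewer cells that express a gene and less RNA per cell cannot be told apart either.

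TCF-1, the product of Tcf7, and LEF1 are related HMG-box proteins that bind the same DNA motif and can recruit β-catenin or Groucho/TLE corepressors. ID3 has no DNA-binding domain and holds E proteins away from DNA. BACH2 is a repressor that competes with AP-1 factors for their sites, FOXO1 is a forkhead factor kept out of the nucleus by AKT downstream of the TCR and PI3K, FOXP1 is a forkhead factor that keeps naive T cells quiescent, and SATB1 organizes chromatin and takes part in the thymic development of Treg cells. As T cells become effector or tissue cells, many of these factors are known to decline.

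Total counts ran from 4490242 to 6570057 per library. Foxp3 lay between 6759 and 10270 normalized counts in all 11 libraries, and the summed level of 8 Treg and T cell markers lay between 46000 and 70040. Of the lists for other cells, the summed level of 8 myeloid markers was between 41.2 and 174.9, that of 6 CD8 T and NK cell markers between 106.4 and 342.1, that of 8 adipocyte and stromal markers between 15.2 and 43.0, that of 4 endothelial markers between 242.4 and 595.3 and that of 4 erythroid and platelet markers between 0 and 17.6. The 8 B cell markers summed to between 6605 and 39100, nearly all of it Ighm and Igkc transcripts, while Ms4a1, at 0 in 4 libraries, was at most 6.52 in the others and Pax5, at 0 in 3, at most 6.25. One library stood apart, replicate 2 of VAT with adjuvant alone, with 39100 for the B cell list against 6909 in replicate 1. For the 7 factors the calls that rest on it are given with and without it. Calls for other genes are given only with it.

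Normalized counts are scaled for library size and compare a gene across libraries. To compare the 7 genes with each other, the normalized count was divided by the length of the longest protein-coding transcript in kb. In Spl/LN with adjuvant alone Id3 was first at 681 ± 48.6 normalized counts per kb (SD, n = 3), followed by Tcf7 at 222 ± 33.5 and Lef1 at 203 ± 19.2, a pair that did not differ beyond its spread. Foxp1 followed at 104 ± 13.7, Foxo1 at 61.7 ± 11.6, Satb1 at 30.9 ± 5.89 and Bach2 at 6.95 ± 2.16. In VAT with adjuvant alone the order on the same scale was Lef1 at 165 ± 1.90 (SD, n = 2), Foxp1 at 74.3 ± 8.49, Foxo1 at 45.0 ± 1.71, Satb1 at 27.7 ± 0.684, Id3 at 24.2 ± 7.90, Tcf7 at 8.69 ± 0.138 and Bach2 at 1.95 ± 2.41. Satb1 and Id3 there did not differ beyond their spread, and Id3, first in Spl/LN, stood below Lef1, Foxp1 and Foxo1.

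With adjuvant/Fat1562 the Spl/LN order per kb was Id3 at 606 ± 78.2, Lef1 at 188 ± 10.8, Tcf7 at 129 ± 42.9, Foxo1 at 55.3 ± 7.32, Foxp1 at 49.1 ± 3.74, Satb1 at 35.8 ± 3.33 and Bach2 at 1.68 ± 1.53 (SD, n = 3). In VAT it was Lef1 at 111 ± 9.47, Satb1 at 56.1 ± 7.70, Foxo1 at 45.9 ± 0.707, Foxp1 at 29.6 ± 5.15, Id3 at 16.0 ± 1.66, Tcf7 at 6.67 ± 6.24 and Bach2 at 0.590 ± 0.467 (SD, n = 3). Foxo1 and Foxp1 in Spl/LN were within their spread of each other. The order depends on the length chosen, since with merged exons Foxo1 stood above Foxp1 in both tissues with adjuvant alone, Id3 stood above Satb1 in VAT with adjuvant alone, Tcf7 stood above Lef1 in Spl/LN with adjuvant/Fat1562 and Foxo1 came first in VAT with adjuvant/Fat1562.

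**Figure D1:**
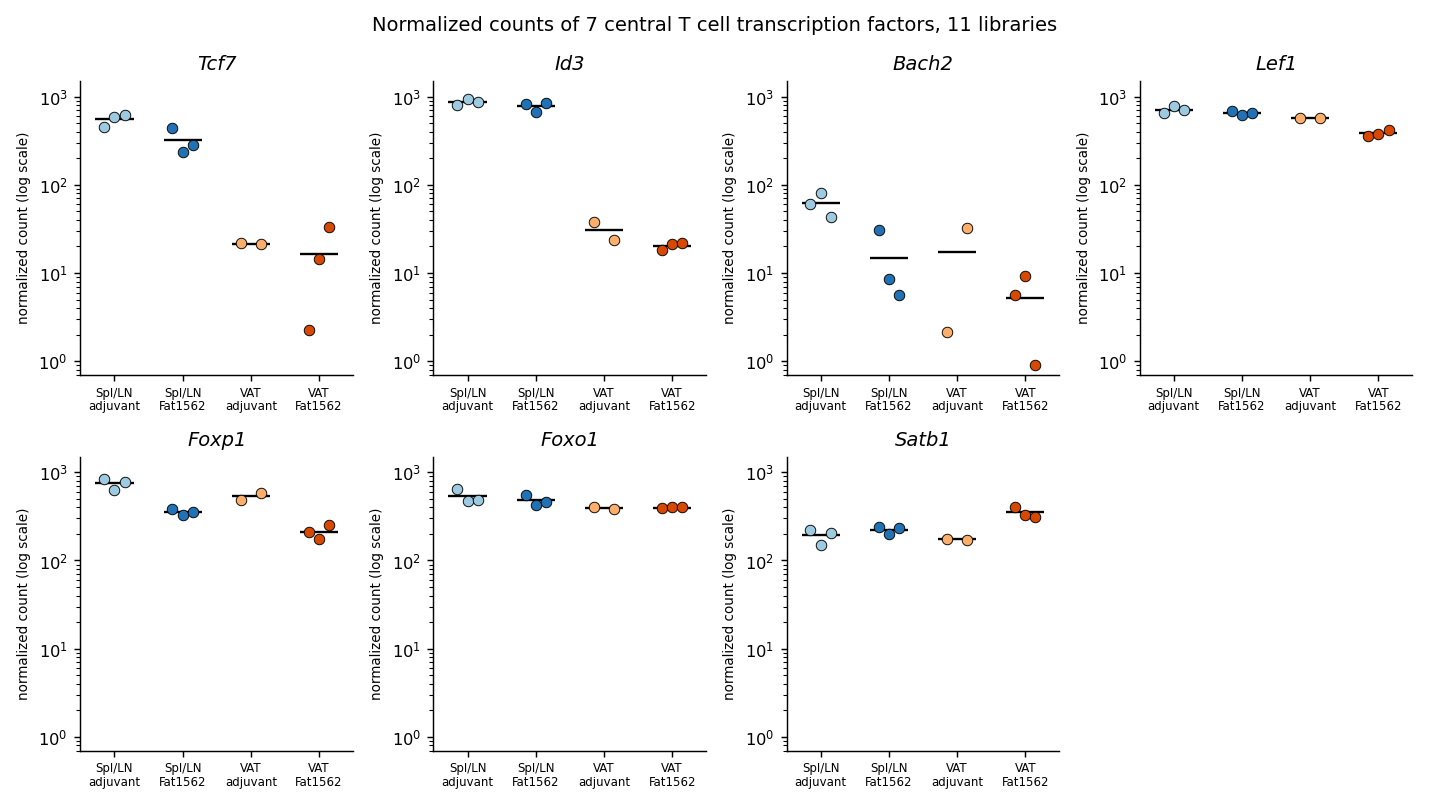
Normalized counts (log scale) of the 7 transcription factors in each of the 11 libraries, grouped by tissue and immunization, with points for libraries and bars for group means. The VAT points of Tcf7 and Id3 lie between 2.25 and 38.0, all below the Spl/LN points, and the Foxp1 points with adjuvant/Fat1562 lie below those with adjuvant alone in both tissues.

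In GRCm38 Tcf7 lies at chr11:52252371-52283014 (minus strand), Lef1 at chr3:131110471-131224356 (plus), Bach2 at chr4:32238804-32586108 (plus), Satb1 at chr17:51736187-51833290 (minus), Id3 at chr4:136143497-136145755 (plus), Foxo1 at chr3:52268336-52353221 (plus) and Foxp1 at chr6:98925338-99522721 (minus). Counts here are over whole genes. No exon of Tcf7 or Id3 overlaps an annotated exon of another gene, and none of their 38-base stretches, the read length, occurs in another annotated gene. For Lef1 14.4% of such stretches occur elsewhere, mostly in Gm43352, an antisense gene that overlaps 1208 exonic bases, and the shares were 7.45% for Foxo1, 6.00% for Bach2, 2.62% for Foxp1 and 1.18% for Satb1. The kit does not mark strand, so reads from antisense partners cannot be told apart in Lef1, Bach2 (Bach2os, 537 bases), Foxo1 (Gm20402, 674 bases) and Satb1 (Gm6934, 128 bases).

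RefSeq windows of 300 bases, 250 before and 50 after an annotated start (GRCm38.p6), were found for all 7 members, 17 windows in all. They were searched on both strands for motifs of factor families described here, CTTTGAA and CTTTGAT for TCF/LEF, GTAAACA for FOXO, TGACTCA for AP-1 and BACH, and the E-box CAGCTG. The first 2 share 6 letters and cannot match at the same place. Of 32851 windows of the same length, 5.14%, 3.73%, 3.65%, 5.20% and 16.3% held them. Members held 6 matches, 4 of the E-box (1 in Tcf7, 1 in Lef1, 2 in Satb1), 1 of GTAAACA in Tcf7 and 1 of CTTTGAA in Foxp1. Those shown here are the forkhead letters in Tcf7, which with Id3 had the largest tissue difference of the 7, and the windows of Foxp1 and Lef1, the members called lower with peptide in VAT. Matched letters are in capitals, sequences run 5′ to 3′ on the strand of the gene, and in Foxp1 the match to CTTTGAA is on the other strand. The stretch of Tcf7 is chr11:52282576-52282605 (minus), the 250 bases before the second listed start of Foxp1 are chr6:99266516-99266765 (minus) and those before the third of Lef1 are chr3:131112541-131112790 (plus).
Tcf7: cctttataggaGTAAACAgacccccgccat
Foxp1: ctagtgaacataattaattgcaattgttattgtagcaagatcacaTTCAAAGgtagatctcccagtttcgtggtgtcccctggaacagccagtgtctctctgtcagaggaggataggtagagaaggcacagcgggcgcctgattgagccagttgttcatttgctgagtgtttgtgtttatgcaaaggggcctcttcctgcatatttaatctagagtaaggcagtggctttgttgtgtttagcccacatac
Lef1: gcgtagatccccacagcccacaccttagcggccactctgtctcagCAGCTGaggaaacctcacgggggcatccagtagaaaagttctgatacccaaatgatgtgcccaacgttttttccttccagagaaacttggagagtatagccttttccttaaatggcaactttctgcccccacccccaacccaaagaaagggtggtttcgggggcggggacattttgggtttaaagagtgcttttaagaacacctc
The count table does not say which start was used, and a match of letters is a description of the sequence, not a bound site.

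The first comparison asked how the cells differed between VAT and Spl/LN. Tcf7 and Id3 fell steeply in VAT, with and without peptide, whereas Lef1, Foxo1, Foxp1 and Satb1 kept most of their level in VAT, with fold changes of at most 1.70 in either direction. Tcf7, the factor of memory and central T cells, gave 456.1, 579.1 and 613.7 normalized counts in Spl/LN with adjuvant alone and 21.7 and 21.2 in VAT. With adjuvant/Fat1562 it gave 436.5, 232.3 and 285.5 in Spl/LN and 2.25, 14.3 and 32.9 in VAT. Every VAT library was below every Spl/LN library.

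In log2 terms Tcf7 was lower in VAT by 4.67 (log2 fold change -4.67, SE 0.469, edgeR's quasi-likelihood test, Benjamini-Hochberg adjusted p = 1.37e-06), a 25.4-fold difference, with adjuvant alone, and without replicate 2 of VAT the log2 fold change was -4.65 (edgeR's adjusted p = 8.85e-05). With adjuvant/Fat1562 the log2 fold change was -4.20 (SE 0.399, edgeR's adjusted p = 8.62e-07). It was -5.20 without replicate 3 of VAT and -3.73 without replicate 1, called in both cases. The VAT values rest on few reads. The count of 2 in replicate 1 of VAT with adjuvant/Fat1562 has an exact 95% Poisson interval of 0.242 to 7.22. The count of 36 in replicate 3 has one of 25.2 to 49.8, so these replicates differed beyond the counting error of reads.

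Id3, the inhibitor of E proteins, gave 809.7, 933.8 and 868.0 normalized counts in Spl/LN with adjuvant alone and 38.0 and 23.7 in VAT. With adjuvant/Fat1562 it gave 816.6, 660.5 and 846.9 in Spl/LN and 18.0, 21.4 and 21.9 in VAT. The tissues were far from overlapping, and the VAT libraries with peptide lay within a narrow range.

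The log2 fold change of Id3 was -4.80 (SE 0.212, edgeR's adjusted p = 3.60e-11) with adjuvant alone, 27.8-fold lower, and -5.23 (SE 0.186, edgeR's adjusted p = 8.38e-12) with adjuvant/Fat1562, 37.5-fold lower. Without replicate 2 of VAT with adjuvant alone the first value was -4.51 (edgeR's adjusted p = 3.87e-09). Ordered from the most negative log2 fold change among the 12932 genes tested, Id3 stood at position 75 with adjuvant alone and at position 10 with adjuvant/Fat1562, and Tcf7 at positions 82 and 21.

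Lef1, which shares its DNA motif with Tcf7, differed far less. It gave 644.5, 777.3 and 699.7 normalized counts in Spl/LN and 569.2 and 578.5 in VAT with adjuvant alone, and with peptide it gave 690.6, 615.6 and 657.6 in Spl/LN and 354.6, 380.2 and 420.1 in VAT. The VAT libraries were below the Spl/LN libraries in both arms, but the gap was small with adjuvant alone.

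With adjuvant alone the log2 fold change of Lef1 between tissues was -0.30 (95% interval -0.57 to -0.03, edgeR's adjusted p = 0.1251), and with adjuvant/Fat1562 Lef1 fell by 0.76 in VAT (SE 0.114, edgeR's adjusted p = 0.000142). Within a library the count of Lef1 was 1.14 to 1.41 times that of Tcf7 in Spl/LN with adjuvant alone and 1.58 to 2.65 times with adjuvant/Fat1562. In VAT it was 26.2 and 27.2 times with adjuvant alone and 12.8 to 158 times with adjuvant/Fat1562. A ratio within a library is free of its size factor. The ratios described here were not divided by gene length, so they compare libraries and do not rank a gene above its partner. They were chosen after the values were seen and were not tested.

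Foxp1 gave 828.1, 637.5 and 776.5 normalized counts in Spl/LN and 489.9 and 576.0 in VAT with adjuvant alone, a log2 fold change of -0.49 (SE 0.161, edgeR's adjusted p = 0.0468). This call was lost in 7 of 12 alternatives, among them without replicate 1 or 3 of the Spl/LN libraries or without either VAT library (log2 fold changes of -0.61 to -0.38). With adjuvant/Fat1562 Foxp1 was at 379.2, 325.5 and 352.1 in Spl/LN and at 210.5, 176.3 and 250.2 in VAT, and it fell by 0.73 in VAT (SE 0.150, edgeR's adjusted p = 0.00278).

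Foxo1 gave 650.3, 469.5 and 482.9 normalized counts in Spl/LN and 400.8 and 379.8 in VAT with adjuvant alone, and 551.1, 430.4 and 457.1 against 390.6, 400.6 and 401.8 with adjuvant/Fat1562. The VAT libraries lay below the Spl/LN libraries in both arms. The log2 fold changes were -0.45 (95% interval -0.79 to -0.12, edgeR's adjusted p = 0.0643) and -0.27 (95% interval -0.57 to 0.03, edgeR's adjusted p = 0.229), neither past the threshold. The first passed it in 4 of 12 alternatives, with adjusted p from 0.0398 to 0.259 over all of them. Leaving out replicate 2 of Spl/LN with adjuvant alone gave -0.54 and leaving out its replicate 3 gave -0.52, both called.

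Satb1 was the member that rose in VAT with adjuvant/Fat1562, but not with adjuvant alone. With adjuvant alone it gave 221.3, 151.3 and 205.8 normalized counts in Spl/LN and 176.0 and 169.9 in VAT, and the groups overlapped (log2 fold change -0.16, 95% interval -0.57 to 0.26, edgeR's adjusted p = 0.657). With adjuvant/Fat1562 it gave 239.7, 200.2 and 231.0 in Spl/LN and 405.3, 331.3 and 315.0 in VAT, with all VAT libraries above all Spl/LN libraries. The log2 fold change was 0.65 (SE 0.169, edgeR's adjusted p = 0.0147), and the call was lost without replicate 2 of Spl/LN (0.57, adjusted p = 0.0724) or without replicate 1 of VAT (0.53, adjusted p = 0.0906).

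Bach2 was the least abundant member and the least certain. It gave 60.9, 81.4 and 43.0 normalized counts in Spl/LN with adjuvant alone, 30.6, 8.56 and 5.61 in Spl/LN with adjuvant/Fat1562, 2.17 and 32.5 in VAT with adjuvant alone and 5.63, 9.17 and 0.913 in VAT with adjuvant/Fat1562. The VAT value of 32.5 belongs to the library with the B cell list at 39100, and Bach2 is also known as a B cell factor. Against replicate 1, this library had 28600 against 6025 normalized counts of Ighm, 10340 against 783.1 of Igkc, 129.9 against 83.6 of Cd79b, 23.7 against 6.52 of Cd79a and 6.25 against 2.17 of Pax5, while Ms4a1 was at 5.00 against 6.52. The B cell list also moved with immunization in Spl/LN, from 17380 to 18450 with adjuvant alone and from 12230 to 13350 with adjuvant/Fat1562. With adjuvant/Fat1562 the list was lower in VAT than in Spl/LN, at 6605 to 8853. Of its 4 tested genes 2 had a positive and 2 a negative log2 fold change there, and 1 was called, lower. The part of B cell transcripts in these values and in the tissue differences of the other factors was not tested. The tissue difference was -1.85 on the log2 scale with adjuvant alone (SE 0.857, edgeR's adjusted p = 0.164) and -4.75 without that library (edgeR's adjusted p = 0.0254), and -1.51 (SE 0.863, edgeR's adjusted p = 0.280) with adjuvant/Fat1562. The latter ran from -2.21 without replicate 2 of VAT to -0.43 without replicate 1 of Spl/LN, and was called in neither case.

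With adjuvant alone 3 of the 7 factors were called lower in VAT and none higher, where 16.3% of all tested genes were called, 9.09% higher and 7.18% lower. In 6 of 7 the tissues did not overlap, against 41.4% of all tested genes, and the median log2 fold change of the 7 was -0.49 against -0.03 for all tested genes. With adjuvant/Fat1562, 4 were called lower and 1 higher, where 15% of genes were called, 8.26% higher and 6.73% lower, the tissues did not overlap in 6 of 7, against 36.2% of all tested genes, and the median was -0.76 against -0.01. The 2 tissue comparisons use different libraries.

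**Figure D2:**
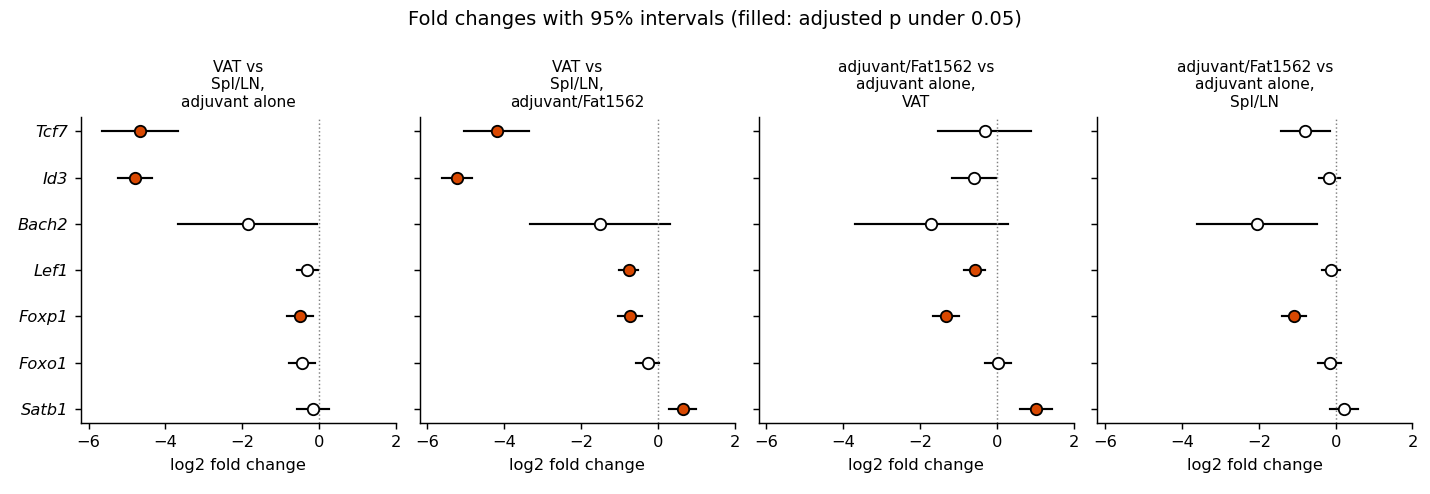
Log2 fold changes of the 7 factors in 4 comparisons, with points for edgeR's estimates, lines for 95% intervals and filled points for an adjusted p under 0.05. Tcf7 and Id3 lie between -5.23 and -4.20 in both tissue comparisons, and Foxp1 is the member filled in all 4 comparisons.

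The second comparison asked what immunization with the peptide changed in each tissue. These 2 contrasts share their control libraries with the tissue contrasts above. Foxp1 fell in both tissues, Lef1 fell and Satb1 rose in VAT, and the remaining factors did not pass the test. From the values above, every Foxp1 library with adjuvant/Fat1562 lay below every library with adjuvant alone of the same tissue. Foxp1 fell by 1.32 in VAT on the log2 scale (SE 0.163, edgeR's adjusted p = 5.23e-05), 2.503-fold, and by 1.09 in Spl/LN (SE 0.144, edgeR's adjusted p = 0.000254), 2.12-fold.

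The difference between the tissues in this change, the interaction of tissue and immunization, was -0.24 for Foxp1 (95% interval -0.70 to 0.22, edgeR's adjusted p = 0.656). The share of counts from mitochondrial genes moved with immunization too, from 1.04% to 1.18% with adjuvant alone and from 0.775% to 0.982% with adjuvant/Fat1562, and its part in these results was not tested. The fall of Foxp1 was called in every alternative run, the omission of each library included, with log2 fold changes of -1.47 to -1.21 in VAT and -1.19 to -1.01 in Spl/LN. Without replicate 2 of VAT with adjuvant alone the VAT value was -1.21 (edgeR's adjusted p = 0.00190).

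Foxo1, the other forkhead factor, gave a log2 fold change of 0.03 in VAT (95% interval -0.31 to 0.36, edgeR's adjusted p = 0.957) and -0.16 in Spl/LN (95% interval -0.45 to 0.14, edgeR's adjusted p = 0.608). The count of Foxo1 relative to that of Foxp1 was 0.622 to 0.785 in Spl/LN and 0.818 and 0.659 in VAT with adjuvant alone. With peptide the ratio was 1.3 to 1.45 in Spl/LN and 1.61 to 2.27 in VAT. The ratio was higher in each of the 6 libraries with peptide than in any of the 5 without. Counts were not divided by gene length here, so a ratio of 1 does not mean equal levels.

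Satb1 rose by a log2 fold change of 1.02 in VAT with peptide (SE 0.198, edgeR's adjusted p = 0.00318), 2.02-fold, was still called without replicate 2 of VAT with adjuvant alone (0.99, adjusted p = 0.0441), and gave 0.21 in Spl/LN (95% interval -0.15 to 0.58, edgeR's adjusted p = 0.557). The interaction for Satb1 was 0.80 (95% interval 0.25 to 1.35, edgeR's adjusted p = 0.107), so a tissue difference in its response was not called. It was called without replicate 2 of Spl/LN with adjuvant alone (0.95, adjusted p = 0.0417). The ratio of Satb1 to Foxp1 counts within a library ran from 0.237 to 0.267 in control Spl/LN libraries and from 1.26 to 1.93 in VAT with adjuvant/Fat1562, with 0.615 to 0.656 in Spl/LN with peptide and 0.359 and 0.295 in VAT with adjuvant alone.

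Lef1 fell by 0.57 in VAT with peptide (SE 0.127, edgeR's adjusted p = 0.00841), 1.49-fold, and its log2 fold change in Spl/LN was -0.11 (95% interval -0.35 to 0.13, edgeR's adjusted p = 0.657). The VAT call was lost without either of the control libraries of VAT, where the log2 fold changes were -0.59 and -0.57 with adjusted p of 0.0549 and 0.0687. The interaction for Lef1 was -0.46 (SE 0.170, edgeR's adjusted p = 0.156).

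Tcf7 gave lower normalized counts with peptide in all 3 Spl/LN libraries than in any control library of Spl/LN, but the log2 fold change of -0.79 (SE 0.298) did not pass edgeR's test (adjusted p = 0.160). It passed when genes of low counts were not filtered out (-0.78, adjusted p = 0.00122) and in a fit of the Spl/LN libraries alone (-0.79, adjusted p = 0.0479). In VAT the log2 fold change of Tcf7 was -0.32 (SE 0.576, edgeR's adjusted p = 0.816), and it became 0.15 without replicate 1 of VAT with adjuvant/Fat1562, the library with 2 counts. Without replicate 3 of that group it was -1.33 (edgeR's adjusted p = 0.229).

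Id3 gave -0.60 in VAT (95% interval -1.17 to -0.03, edgeR's adjusted p = 0.211) and -0.17 in Spl/LN (95% interval -0.44 to 0.11, edgeR's adjusted p = 0.549). Its 3 VAT libraries with peptide were below both without, and the VAT value was -0.89 without replicate 2 of VAT with adjuvant alone and -0.21 without its replicate 1, called in neither case. Bach2 was lower in each of the 3 Spl/LN libraries with peptide than in any without, with a log2 fold change of -2.05 (SE 0.736, edgeR's adjusted p = 0.137), which passed without the filter on low counts (-2.04, adjusted p = 0.00922) and was -3.12 without replicate 1 of Spl/LN with peptide (adjusted p = 0.0755). In VAT the value of Bach2 was -1.70 (SE 0.946, edgeR's adjusted p = 0.330), and it turned to 1.19 without replicate 2 of VAT with adjuvant alone.

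Marker lists moved with peptide in VAT as well. The endothelial list, nearly all of it Pecam1, which T cells can also express, was at 242.4 and 298.7 with adjuvant alone and at 412.7 to 595.3 with adjuvant/Fat1562 (Pecam1 log2 fold change 1.00, SE 0.170, edgeR's adjusted p = 0.00112), while Cdh5, Kdr and Tek were at most 4.503, 5.61 and 10.98 in any library. Of the B cell list, Igkc and Ighm were called lower (-4.42 and -1.19, edgeR's adjusted p of 0.00199 and 0.0415). The sum over the list was 6909 and 39100 with adjuvant alone and 6605 to 8853 with adjuvant/Fat1562. The Ighm call rests on replicate 2 of VAT with adjuvant alone, at 28600 normalized counts. Replicate 1 was at 6025, below the 6341 to 8501 with adjuvant/Fat1562. Igkc was at 783.1 and 10340 with adjuvant alone and at 192.5 to 340.5 with adjuvant/Fat1562. The part of these marker lists in the results for VAT was not tested.

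In VAT 2 of the 7 factors were called lower with peptide and 1 higher, where 8.3% of all tested genes were called, 4.33% higher and 3.97% lower. The groups did not overlap in 4 of 7, against 41.1% of all tested genes, and the median log2 fold change of the 7 was -0.57 against 0.01 for all genes. In Spl/LN 1 of 7 was called, lower, where 3.98% of genes were called, 2.58% higher and 1.4% lower, with 3 of 7 not overlapping, against 21.2% of all tested genes, and a median of -0.17 against a median for all genes of 0.00 when rounded. In the interaction edgeR called 0 of the 7, where 3.72% of genes were called. Of the 7, Satb1 and Lef1 had an unadjusted p under 0.05 there, and 0 were called by DESeq2 or by limma with quantile normalization.

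**Figure D3:**
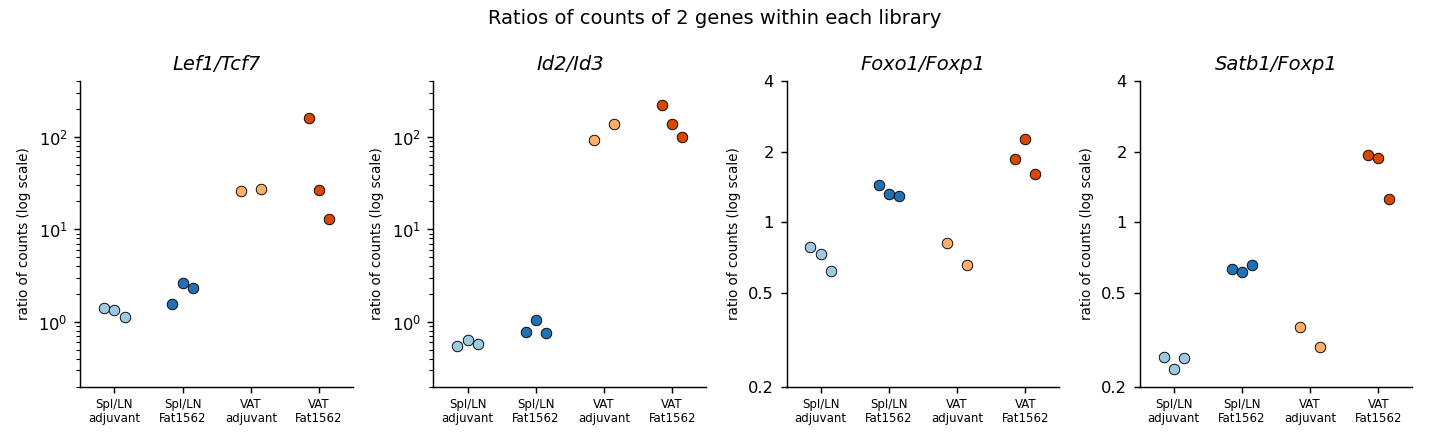
Ratio of the counts of 2 genes within each library (log scale) for Lef1 to Tcf7, Id2 to Id3, Foxo1 to Foxp1 and Satb1 to Foxp1, with 1 point per library. The first 2 ratios separate VAT from Spl/LN, and Foxo1 to Foxp1 is higher in the 6 libraries with adjuvant/Fat1562 than in the 5 with adjuvant alone. Counts are not divided by gene length.

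The genes that work with each factor were counted in the same fit. Over all tested genes 16.3% were called between tissues with adjuvant alone and 15% with adjuvant/Fat1562. With peptide 8.3% were called in VAT and 3.98% in Spl/LN. Of 22 listed partners, paralogs and pathway genes of TCF-1 and LEF1, 18 were tested. Ctbp2, a corepressor, rose in VAT with adjuvant alone (log2 fold change 2.01, SE 0.635, edgeR's adjusted p = 0.0385) and with adjuvant/Fat1562 (2.17, SE 0.607, edgeR's adjusted p = 0.0218). Gsk3b, the kinase that marks β-catenin for degradation, rose by 0.38 with adjuvant alone (edgeR's adjusted p = 0.0382). Axin2, a scaffold of the β-catenin destruction complex and itself a known target of TCF/LEF factors, was called lower in VAT than in Spl/LN with adjuvant/Fat1562 (-1.11, SE 0.252, edgeR's adjusted p = 0.00565) and lower with peptide in VAT (-0.95, SE 0.280, edgeR's adjusted p = 0.0439). No other gene of this list was called in these comparisons, and edgeR called 0 of 18 with peptide in Spl/LN, where 2 had an unadjusted p under 0.05. With quantile normalization and limma 0 genes of this list were called between tissues with adjuvant alone.

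Of the E proteins and other Id proteins, 5 of 6 were tested, namely Tcf3, Tcf4, Tcf12, Id1 and Id2, while Id4 was not. Id2, which like Id3 sequesters E proteins, rose in VAT with a log2 fold change of 2.73 (SE 0.180, edgeR's adjusted p = 6.42e-09) with adjuvant alone and 2.202 (SE 0.166, edgeR's adjusted p = 5.99e-08) with adjuvant/Fat1562. It was the only one of the 5 that edgeR called, or limma with quantile normalization. With peptide 0 were called in either tissue, and 1 had an unadjusted p under 0.05 in each. The count of Id2 was 0.544 to 0.644 times that of Id3 in Spl/LN with adjuvant alone and 0.763 to 1.05 times with adjuvant/Fat1562, but 92.6 and 138 times in VAT with adjuvant alone and 98.8 to 220 times with adjuvant/Fat1562.

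Of the 7 relatives and partners of BACH2 (Bach1, Mafk, Mafg, Maff, Nfe2l1, Nfe2l2 and Prdm1), Mafg, a small Maf partner, rose in VAT with adjuvant alone (0.83, SE 0.206, edgeR's adjusted p = 0.00918). Prdm1, which encodes BLIMP-1 and is a known target of BACH2 repression, rose in VAT with adjuvant/Fat1562 (0.53, SE 0.171, edgeR's adjusted p = 0.0468), a call that limma with quantile normalization did not make. Of the relatives of FOXO and FOXP proteins, Foxo3, Foxo4 and Foxp4 were tested and 0 were called by edgeR or limma, with 0 unadjusted p under 0.05, and Foxo6 and Foxp2 were below the filter.

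The regulators of FOXO proteins in the PI3K-AKT pathway, 17 genes all tested, held few calls. Pik3ip1, an inhibitor of PI3K, was called lower in each of the 4 comparisons, with log2 fold changes of -1.41 and -1.61 between tissues with adjuvant alone and with adjuvant/Fat1562, -1.02 with peptide in VAT and -0.82 with peptide in Spl/LN (edgeR's adjusted p of 0.000269, 3.07e-05, 0.0109 and 0.0213). Inpp5d, the phosphatase SHIP, rose in VAT with adjuvant alone (0.65, SE 0.095, edgeR's adjusted p = 0.000103). Phlpp1, a phosphatase of AKT, rose with peptide in VAT (1.26, SE 0.278, edgeR's adjusted p = 0.00812), and Pik3cd, the leukocyte PI3K catalytic subunit, was called lower there (-0.61, SE 0.139, edgeR's adjusted p = 0.00977).

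Among 16 genes known as FOXO1 targets, 15 were tested, and they moved in both directions. Between tissues 4 were called higher and 4 lower with adjuvant alone, and 4 higher and 5 lower with adjuvant/Fat1562, with medians of 0.01 and -0.10 on the log2 scale. These were 53.3% and 60% of the list, against 16.3% and 15% of all tested genes. With peptide the shares were 40% in VAT and 13.3% in Spl/LN, against 8.3% and 3.98%. Irs2, the insulin receptor substrate, was higher in VAT (3.38 and 2.39, edgeR's adjusted p of 1.65e-06 and 9.27e-05), and S1pr1, the receptor for exit from lymphoid organs, was lower (-1.83 and -2.08, edgeR's adjusted p of 9.81e-08 and 5.70e-09). Ccr7, the chemokine receptor for lymph node entry, was lower in VAT with adjuvant alone (-3.29, edgeR's adjusted p = 2.88e-06), and Klf2, a regulator of homing genes, with adjuvant/Fat1562 (-1.72, edgeR's adjusted p = 0.000881). With peptide 2 were called higher and 4 lower in VAT (median -0.12), among them Bcl2l11, the death factor BIM, at 1.18 and Irs2 at -1.67 (edgeR's adjusted p of 0.0120 and 0.00276). In Spl/LN 1 was called higher and 1 lower (median 0.02), Bcl2l11 at 1.302 and Ccr7 at -3.07 (edgeR's adjusted p of 0.00285 and 1.28e-05).

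Other transcripts of naive-like or central T cells gave 19 tested of 20 listed. Between tissues 10 were called lower in VAT and 2 higher with adjuvant alone (median -0.94), and 8 lower and 3 higher with adjuvant/Fat1562 (median -0.28). These were 63.2% and 57.9% of the list, against 16.3% and 15% of all tested genes. With peptide the share was 42.1% in either tissue, against 8.3% in VAT and 3.98% in Spl/LN. Evl, a cytoskeletal regulator, had log2 fold changes of -4.43 and -4.41 (edgeR's adjusted p of 8.63e-07 and 5.07e-07), close to those of Tcf7, and Nsg2 had -4.44 and -3.58 (edgeR's adjusted p of 1.43e-06 and 1.65e-05). No VAT library had a count above 6 for Evl or above 12 for Nsg2, so the size of these changes rests on few reads. Klf3, a Krüppel-like factor, was lower with adjuvant/Fat1562 (-3.53, edgeR's adjusted p = 5.57e-08). With peptide 4 were called higher and 4 lower in VAT (median -0.47), and 1 higher and 7 lower in Spl/LN (median -0.26), where Bcl2, the survival factor, fell by 1.38 (edgeR's adjusted p = 0.00721).

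The 14 factors known for effector or tissue Treg cells gave 9 called higher and 1 lower in VAT with adjuvant alone (median 1.12), and 11 higher and 0 lower with adjuvant/Fat1562 (median 0.89). These were 71.4% and 78.6% of the list, against 16.3% and 15% of all tested genes. With peptide the shares were 50% in VAT and 42.9% in Spl/LN, against 8.3% and 3.98%. Pparg, the regulator known for VAT Treg cells, rose by 4.95 and 2.503 (edgeR's adjusted p of 1.09e-07 and 3.07e-05), Junb, an AP-1 subunit, by 3.52 and 2.79, and Bhlhe40 by 2.66 and 3.31. With peptide 4 were called higher and 3 lower in VAT (median 0.12), and 5 higher and 1 lower in Spl/LN (median 0.18). Tbx21, which encodes T-bet, rose by 2.75 in VAT and 1.84 in Spl/LN (edgeR's adjusted p of 0.000145 and 0.00256). Id2 and Prdm1 are on this list and on the lists above.

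A further 22 transcription factors of T cells in general, taken as a contrast, were called in both directions, with 5 higher and 5 lower in VAT with adjuvant alone, 4 higher and 5 lower with adjuvant/Fat1562, 2 higher and 2 lower with peptide in VAT and 3 higher and 0 lower with peptide in Spl/LN. In the same order these were 45.5%, 40.9%, 18.2% and 13.6%, against 16.3%, 15%, 8.3% and 3.98% of all tested genes. For the 7 factors the shares were 42.9%, 71.4%, 42.9% and 14.3%. With adjuvant alone the 7 factors were thus not called more often than this list, and with peptide in Spl/LN the shares were close. The largest difference between tissues with adjuvant alone was that of Myb (-1.56, SE 0.377, edgeR's adjusted p = 0.00769), and with peptide Myb rose in VAT (2.197, SE 0.377, edgeR's adjusted p = 0.00118). Among these factors no tissue difference exceeded that of Myb, so none reached the size seen for Tcf7 or Id3.

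**Figure D4:**
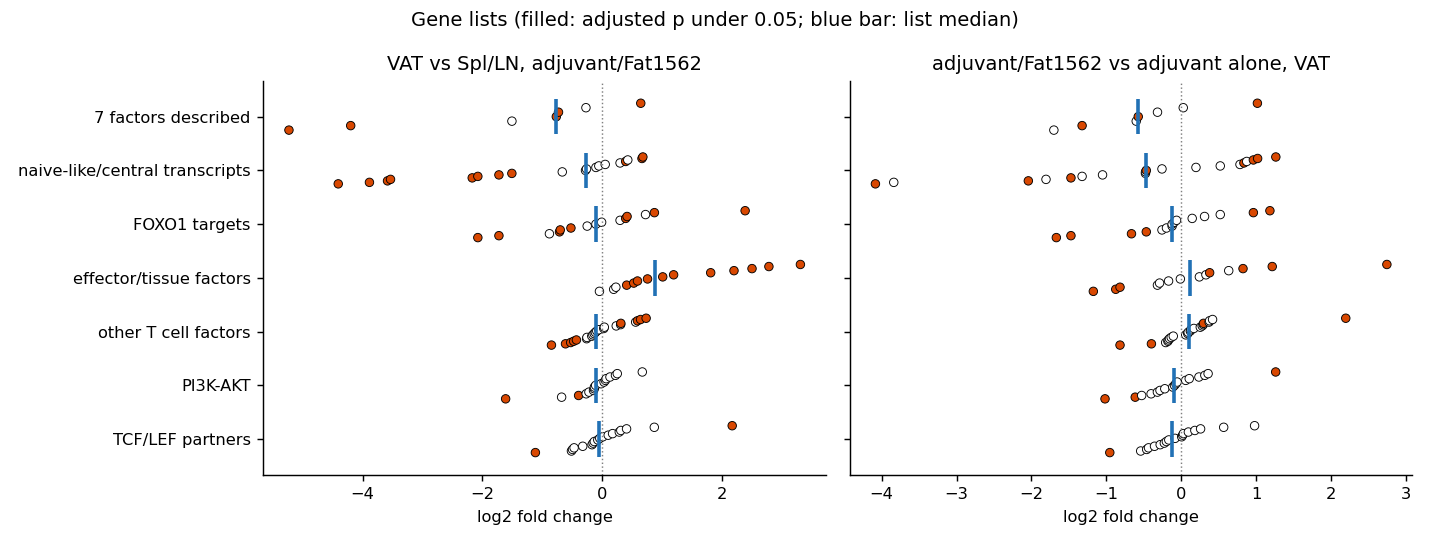
Log2 fold changes of the 7 factors and of 6 gene lists between VAT and Spl/LN with adjuvant/Fat1562 (left) and with peptide in VAT (right), with 1 point per gene, filled where the adjusted p was under 0.05, and a blue bar at each list's median. Effector and tissue factors have a median of 0.89 on the left, and Tcf7 and Id3 are the 2 members of their list below -4.

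The genes whose profile over the 11 libraries was most like that of a member were found by the root mean square (RMS) difference of centred log2(normalized count + 1) values. For Tcf7 they were Evl (0.677), Id3 (0.772) and Slc7a10 (0.784), and for Id3 they were Aff3 (0.565), Evl (0.580) and Tcf7 (0.772). Tcf7 and Id3 were thus each among the 3 nearest genes of the other, whereas the RMS difference of Tcf7 and Lef1 was 2.2. For Bach2 the nearest were Slc22a2 (0.840), Dzip1 (0.856) and Ank3 (0.878), for Satb1 they were Ncapg (0.159), Cox17 (0.174) and Ndc1 (0.175), and for Foxp1 they were Sec31b (0.214), Syne2 (0.268) and Cbx7 (0.292). The group means of Lef1 and Foxo1 spanned 1.84-fold and 1.37-fold, under the 2-fold range set for naming such genes. The likeness is a description over libraries that share 4 group levels.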

How the data were processed

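Clonotype+ Treg cells (1000 per library) were profiled by Smart-seq2 with paired reads of 38 bases. The authors deposited a table of raw counts for 52997 genes by symbol. Per the labels, the submitters' processing notes name STAR 2.5.4, featureCounts and mm10, while the study's methods name Cuffquant and a filter on normalized reads above 10. The strand setting and annotation are not given in the sources used here. No unique molecular identifiers are named and the libraries were amplified by PCR. Poisson intervals therefore cover the counting error of reads only, and the sampling error of the molecules before amplification can be wider.

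Groups and replicate numbers came from the labels, and 0 columns were unmatched. The methods call the replicates biological. No pair agreed within sampling noise (chi-square per degree of freedom 5.33 to 11.4), a measure that cannot tell biological from technical replicates. Counts were scaled to the mean library total, and the 12932 genes whose mean exceeded 10 in any of the 4 groups entered the test, edgeR 4.0.16 under R 4.3.3 (TMM, quasi-likelihood fit and test of the 4 groups in one fit, prior count 0.125). P-values were adjusted over these genes by the Benjamini-Hochberg method and called under 0.05. A normalized count is the count over the library's TMM-adjusted size, multiplied by the mean of these sizes. Positions, exon overlaps and shared stretches came from GENCODE vM21 (GRCm38), promoter windows from RefSeq (GRCm38.p6).

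The 7 factors and the gene lists were chosen with earlier results of these data known. In every list of 7 or fewer all genes could be named, and otherwise the 4 called genes with the largest change in a comparison. Like profiles were named for members whose group means span over 2-fold. Alternatives were no filter, a mean above 50, quantile normalization with limma 3.58.1, median-of-ratios size factors, DESeq2 1.42.0, only the groups compared, the replicate number as a block and each library left out. The steps were tested on simulated data. Some listed genes are not reported here by name.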

Additional observations from a re-analysis of the deposited data

Results flagged for a closer look

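Of 118 distinct tested genes on the lists, 12 differed between VAT and Spl/LN in their change with peptide, by edgeR's test of the interaction (adjusted p under 0.05), where 3.72% of all tested genes were called. None of the 7 factors was among them. Values are the log2 change with peptide in VAT minus that in Spl/LN, positive where the change was more positive in VAT. Among naive-like or central transcripts and FOXO1 targets the values were 3.59 for Ccr7 (adjusted p = 0.000239), 1.44 for Slamf6 (0.00140), 0.89 for Cd27 (0.00171), 0.68 for Npm1 (0.00459) and -1.79 for Klf2 (0.0341). Among effector and tissue factors they were -2.44 for Pparg (0.0145), -1.05 for Rora (0.00102), -0.74 for Junb (0.000522), -0.66 for Gata3 (0.0461) and 0.56 for Ikzf3 (0.0432). In Spl/LN Pparg was at 0.915 to 20.3 normalized counts with adjuvant alone and at 53.5 to 64.95 with adjuvant/Fat1562. In VAT it was at 398.6 and 413.8 with adjuvant alone and at 282.2 to 392.9 with adjuvant/Fat1562. The Pparg value thus rests in part on low counts in Spl/LN. Myb gave 2.12 (0.0171) and Phlpp1 1.45 (0.0342). All adjusted p-values here are edgeR's over all tested genes.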

How the results depend on the processing

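Called lower in every alternative run were Tcf7 and Id3 in both tissue comparisons, Lef1 and Foxp1 between tissues with adjuvant/Fat1562 and Foxp1 with peptide in both tissues, and Satb1 was called higher with peptide in VAT in every alternative. The cause of the changes that follow was not tested. Calls gained without a filter on low counts were Bach2 between tissues with adjuvant alone (-1.85), and Tcf7 (-0.78) and Bach2 (-2.04) with peptide in Spl/LN. Foxo1 between tissues with adjuvant alone was called with a mean above 50 as the filter (-0.46) and with quantile normalization (-0.49). Foxp1 there lost its call with median-of-ratios size factors (-0.48) and with only the groups compared (-0.48), a setting that also called Tcf7 with peptide in Spl/LN (-0.79). Quantile normalization turned the Tcf7 interaction to -0.18.

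Same-numbered libraries had r of -0.04 to 0.06 over 15 pairs, but pairs across arms cannot share a mouse. Within an arm, same-numbered Spl/LN and VAT libraries had r of 0.0373 and 0.0303 with adjuvant alone. With adjuvant/Fat1562 r was 0.0555, 0.03 and 0.0299, against -0.0576 to 0.0277 for differently numbered libraries. These values are small and do not settle whether the numbers mark pairs, and the main fit does not use them as pairs. With the replicate block the call of Foxp1 between tissues with adjuvant alone was lost (-0.43), and no other call among the 7 factors changed. The block gave 1803, 1860, 990, 515 and 437 called genes, in the order tissue with adjuvant alone, tissue with adjuvant/Fat1562, peptide in VAT, peptide in Spl/LN and interaction, against 2103, 1938, 1074, 515 and 481.

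For peptide in Spl/LN, 793 genes were called without a filter and 793 with DESeq2, and DESeq2 called 783 in the interaction. With each library left out the numbers of called genes ran from 1250 to 2106, 1288 to 1710, 509 to 823, 190 to 483 and 236 to 581 in the same order. The log2 fold changes with adjuvant alone between tissues then ran from -4.75 to -0.92 for Bach2, -0.54 to -0.29 for Foxo1 and -0.61 to -0.38 for Foxp1, and that of Satb1 with adjuvant/Fat1562 from 0.53 to 0.72. With peptide in VAT they ran from -1.33 to 0.15 for Tcf7, -0.65 to -0.52 for Lef1, -2.64 to 1.19 for Bach2 and -0.0158 to 0.0625 for Foxo1. With peptide in Spl/LN Foxo1 ran from -0.27 to 0.0101 and Bach2 from -3.12 to -1.64. In the interaction Tcf7 ran from -0.54 to 0.94, Bach2 from -0.58 to 3.25 and Satb1 from 0.69 to 0.95. Of 90 counts of called list genes under 2 other scalings, 4 moved by over 1.5 times, all with quantile normalization. In VAT no library had more than 38.0 normalized counts of Tcf7, Id3 or Bach2. Tcf7 with adjuvant/Fat1562 and Bach2 with adjuvant alone differed between VAT libraries beyond the counting error of reads.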
